A study of Meriones unguiculatus with 18 samples.

Results

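Genes for chaperones and for protein folding in the endoplasmic reticulum (ER) were followed in RNA from the livers of male Mongolian gerbils (Meriones unguiculatus), a rodent that develops fatty liver on a fat-rich diet. They were chosen by gene name alone, from names of heat shock proteins, their J-domain and BAG partners, the CCT chaperonin, ER lectins, disulfide and prolyl isomerases, the Sec61 channel, ER-associated degradation and the transcription factors of the stress responses. Of 13172 assembled transcripts (unigenes) in the table, 48 had such a name. The row with the highest mean was kept for each name, which left 42 genes. Animals ate ordinary feed, the normal diet (ND), or a fat-enriched one (HFD), over 4 or 16 weeks, and each diet and time had 3 libraries. The HFD was the same feed at 80.5% of the mix, to which cholesterol (2%), bile salt (0.5%), lard (7%) and powdered egg yolk (10%) were added. No transgene, knockout or drug is named, the labels used here state no age, and they disagree on whether 36 or 18 gerbils were used. Whether 1 library holds 1 animal or a pool is not stated either, so each p-value measures the spread between libraries.

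As background, proteins that enter the secretory pathway pass through the Sec61 channel and fold in the ER with the help of lectin chaperones, which bind sugar chains, and of disulfide isomerases and prolyl isomerases. When folding falls behind, the sensors ATF6, IRE1 and PERK raise ER chaperones through the factors ATF6, XBP1 and ATF4, while in the cytosol and nucleus HSF1 drives the heat shock genes. Hepatocytes secrete most plasma proteins and rely heavily on this machinery, and activated stellate cells use a related set of ER proteins to fold collagen.

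The table gives normalized levels that share 1 set of sorted values in every library (column sum 158000, highest value 28800), so sequencing depth is unknown and a level reflects a unigene's rank. Transcript lengths are not part of it, so levels are compared between libraries and not between genes. A gene at the lowest value of a library is called not detected there. The 6 libraries labelled 8 weeks did not follow the other 12: across all unigenes their r with those of 4 and 16 weeks was 0.001 to 0.032 over 72 pairs, while libraries of 1 group had 0.771 to 0.858, and they were left out. ALB and Apob, the hepatocyte markers with a row, were detected in all 12 libraries. ALB held the highest value (28760) in 9 of them, and stood at 8090 in HFD library 2 of 4 weeks and at 8090 and 5760 in HFD libraries 1 and 2 of 16 weeks, while Apob ran from 59.0 (HFD library 2 of 16 weeks) to 194. Neither was called by diet (limma adjusted p = 0.574 to 0.947). ALB was at the top of the shared values in every ND library, so it could not rise on HFD. Its log2 folds had an SE of 1.79, so a fall could hardly be called either. Of 14 macrophage markers 5 had a row (Cd68, Cd5l, Gpnmb, C1qc and Itgax), and their summed level ran from 11.3 to 22.7 in ND and from 106 to 139 in HFD at 4 weeks, and from 36.1 to 51.2 and from 1500 to 1870 at 16 weeks. Most of the last range is Gpnmb (1263 to 1522), and Cd5l went the other way at 16 weeks, from 11.4 to 26.7 in ND to 0.036 to 1.89 in HFD (log2 -3.73, limma adjusted p = 0.00091). Of 10 stellate cell or fibroblast markers 4 had a row (Col1a1, Des, Lum and Thy1), with sums of 7.82 to 10.2 and 37.1 to 59.8 at 4 weeks and 9.57 to 11.8 and 626 to 1380 at 16 weeks. C1qc was at 0 in the 3 HFD libraries of 16 weeks. In whole liver, fewer cells of a type and less RNA per cell cannot be told apart. Both sums were higher on HFD, as were several folding genes below, and their part in those results was not tested.

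Detection divided the libraries before any comparison of levels. Of the 42 genes, 25 were detected in all 12 libraries and 17 were not, and 12 of the 17 were present or absent as a whole in each of 3 sets of libraries: the 6 of ND, the HFD libraries numbered 1, and the HFD libraries numbered 2 and 3. HSP18.1, Hsp83, PDIA3, PPIB and PPIF were detected in the 4 HFD libraries numbered 2 and 3 and in no other. XBP1, SEC61B and the kept row of SEC61G were detected in the pair of HFD libraries numbered 1 and in no other. A second row named SEC61G was detected in the 4 HFD libraries numbered 2 and 3 and in no other. With values summed by name, SEC61G was called higher on HFD at 4 and 16 weeks by limma, and it reached the mean through HFD alone. HSPRO2 and sec61a were detected in the 6 ND libraries and listed at 0 in the 6 of HFD. Pdia6 and the kept row of PPIA were detected in ND and in the HFD libraries numbered 1, and listed at 0 in the other 4 HFD libraries. A second row named PPIA, under the mean, had 0.559, 1.92 and 1.64 in HFD at 16 weeks. Elsewhere it was detected in ND library 2 of 16 weeks alone (1.51). With values summed by name PPIA was still called lower at both times by limma. A second row named Calr, also under the mean, was detected in the 4 HFD libraries numbered 2 and 3 and in no other. The other 5 (Hspa4l, Dnajb14, HSP90AA2P, Hspb7 and CCT4) were detected in a fraction of at least 1 set; Dnajb14, for one, was detected in the 3 ND libraries of 4 weeks and in none of the 3 of 16 weeks. No set holds both diets, so for those 12 genes a difference between ND and HFD cannot be told apart from one between sets. For all of them but HSPRO2 and sec61a, detection also differed between the HFD sets, which shared 1 diet. Changes over time lie within sets. The names HSP18.1 and HSPRO2 are plant names, Hsp83 is a fruit fly name and HSP90AA2P that of a human pseudogene, and with sec61a these were the 5 names outside the gerbil annotation, which held the other 37. A name marks the match made by the authors and not the source of the RNA.

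**Figure D1:**
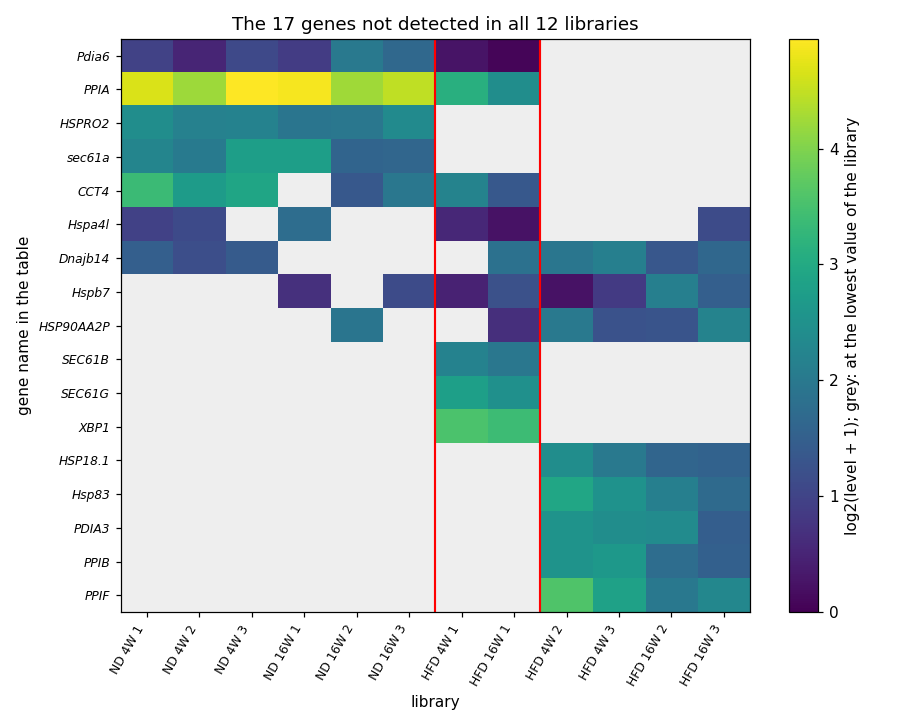
Levels of the 17 genes not detected in all 12 libraries, as log2(level + 1) in colour, with 1 gene a row and 1 library a column; grey marks a gene at the lowest value of that library, and red lines divide ND, HFD numbered 1 and HFD numbered 2 and 3. For 12 genes the blocks of colour fill whole sets, and 5 genes split within a set: 5 of the 12 fill the right-hand 4 columns alone, 3 the middle pair alone, 2 the left-hand 6 alone and 2 the left-hand 6 with the middle pair.

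HFD was compared with ND at each time with limma on log2(level + 1), over the 9487 unigenes with a mean of at least 1, and a gene was called at a Benjamini-Hochberg adjusted p under 0.05. Of the 42 genes 36 could be tested; HSP18.1, Hspa4l, Hspb7, Pdia6, SEC61B and SEC61G fell under the mean. At 4 weeks 2 genes rose on HFD (JUN and Bag6) and 9 fell (Bag1, CCT4, DNAJA1, FKBP2, HSPRO2, PPIA, Ppie, Rrbp1 and sec61a). These 11 are 30.6% of the 36, where 12.1% of all unigenes tested were called (4.89% higher, 7.22% lower). Of these 11, CCT4, HSPRO2, PPIA and sec61a were not detected in every library. HSPRO2 and sec61a, at 0 in all HFD libraries, reached the mean through ND alone, so they could enter the test as lower on HFD and in no other way, and their calls carry no weight. A total of 11 of the 36 genes had a mean under 1 in 1 diet. Apart from these the calls numbered 8 at 4 weeks (2 higher, 6 lower) and 19 at 16 weeks (10 higher, 9 lower). The share of all unigenes called under the same limit was not taken, so these counts have no background beside them. The called genes set aside were CCT4, HSPRO2 and sec61a at 4 weeks and Dnajb14, Fkbp10, HSPRO2 and sec61a at 16 weeks. Among the 25 genes detected in every library 7 were called, 2 higher and 5 lower, beside 16.3% of all such unigenes (7.23% higher, 9.03% lower), and of named unigenes tested 19.1% were called. When the libraries were rescaled by median ratios, which moved the median log2 fold change of all unigenes from -0.03 to 0.10, the split at 4 weeks became 3 higher and 6 lower. Over the 9439 unigenes then tested it was 597 higher and 505 lower.

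At 16 weeks the heat shock genes HSPB1, Hspa8 and Hsp90aa1 and the ER lectin Calr were higher on HFD, while DNAJA1, FKBP2 and Fkbp8 were lower. The collagen-associated prolyl isomerase Fkbp10 was also called higher, though it reached the mean through HFD alone. In all 12 genes rose and 11 fell, or 63.9% of 36. The share of all unigenes called at 16 weeks was 35.2% (15.3% higher, 19.9% lower), and that of named unigenes was 49.8%. Of the 25 genes detected in every library 19 were called, 11 higher and 8 lower, beside 49.2% of all such unigenes (22.2% higher, 27% lower). The median log2 fold change of the 36 genes was 0.42, compared with -0.12 for all unigenes tested; at 4 weeks the medians were -0.05 and -0.03. Summed over the 42 genes, levels ran from 1319 to 1907 over the 6 ND libraries, from 1383 to 1587 on HFD at 4 weeks and from 2124 to 2219 on HFD at 16 weeks. A large part of each sum is Hspa8. Without it the sums ran from 1097 to 1319 on ND, from 1045 to 1122 on HFD at 4 weeks and from 1417 to 1561 on HFD at 16 weeks.

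**Figure D2:**
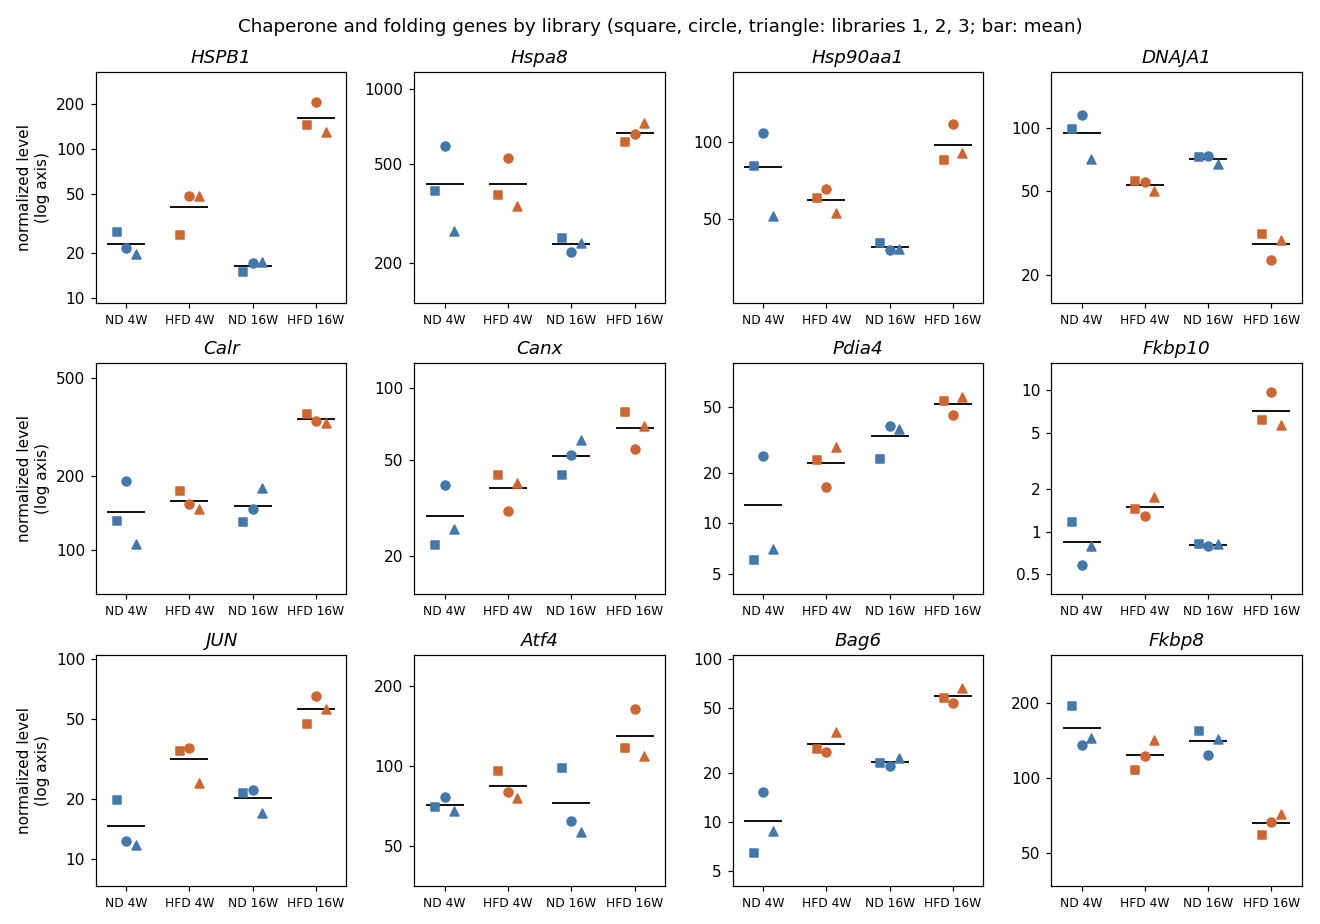
Normalized level of 12 chaperone and folding genes in each library of 4 and 16 weeks, on log axes, with blue for ND and orange for HFD; symbols mark libraries 1 to 3 and bars the group means. The 3 HFD libraries of 16 weeks lie above every other library for HSPB1 (129 to 204) and Calr (328 to 358), and below every other library for DNAJA1 (23.5 to 31.0) and Fkbp8 (59.1 to 71.5).

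HSPB1 (TRINITY_DN28743_c0_g1), the small heat shock protein HSP27, which holds unfolded proteins and binds actin, gave the largest fold at 16 weeks of the genes detected throughout. Its levels in libraries 1, 2 and 3 were 27.5, 21.5 and 19.7 in ND and 26.3, 48.0 and 48.2 in HFD at 4 weeks, and 14.9, 17.2 and 17.4 in ND and 145, 204 and 129 in HFD at 16 weeks. At 16 weeks the diets did not overlap, and at 4 weeks HFD library 1 lay within the range of ND while libraries 2 and 3 lay above it. The log2 fold change was 0.77 at 4 weeks (SE 0.24, limma adjusted p = 0.0622) and 3.17 at 16 weeks (SE 0.24, limma adjusted p = 4.03e-06). Without the HFD libraries numbered 1 the fold at 4 weeks was 1.05 and was called (limma adjusted p = 0.0112). The fold at 16 weeks was as large within either HFD set, 3.23 with the libraries numbered 2 and 3 and 3.06 with those numbered 1, and was called in both.

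Hspa8 (TRINITY_DN35853_c0_g1), the constitutive cytosolic HSP70, had levels of 391, 588 and 269.7 in ND and 375, 528 and 338 in HFD at 4 weeks. At 16 weeks it had 252, 222 and 239.7 in ND and 610.2, 658 and 731 in HFD. The diets overlapped throughout at 4 weeks and were well apart at 16 weeks, with ND library 2 of 4 weeks among the high ones. Its log2 fold change was 0.04 at 4 weeks (SE 0.28, limma adjusted p = 0.954) and 1.48 at 16 weeks (limma adjusted p = 0.00191). Hsp90aa1 (TRINITY_DN36156_c2_g1), the stress-inducible cytosolic HSP90, stood at 80.7, 108 and 51.3 in ND and 60.5, 65.6 and 53.0 in HFD at 4 weeks, and at 40.5, 37.8 and 38.5 and 85.4, 117 and 90.7 at 16 weeks. The order of the diets at 16 weeks was again clear of overlap, and ND library 2 was again the highest of its group at 4 weeks. The log2 fold changes of Hsp90aa1 were -0.36 (SE 0.23, limma adjusted p = 0.35) and 1.29 (limma adjusted p = 0.00123). Both calls at 16 weeks were missed with the HFD libraries numbered 1 alone, where the folds were 1.36 and 1.11 (limma adjusted p = 0.0754 and 0.0977). Family members with near-identical sequence can share reads in an assembly, so the copy behind Hspa8 and Hsp90aa1 is uncertain. A second row named HSP90AA1 shares its assembly cluster with HSP90AA2P. That row was not called, with log2 fold changes of -1.32 at 4 weeks and 0.01 at 16 weeks (SE 0.69, limma adjusted p = 0.245 and 0.993). With values summed by name Hsp90aa1 was still called higher at 16 weeks. Hspa4l, of the HSP110 type, and Hspb7, a small heat shock protein best known from muscle, were detected in 6 and 8 of the libraries at 3.38 or less.

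DNAJA1 (TRINITY_DN36045_c1_g2), a J-domain protein that delivers clients to cytosolic HSP70, went the other way. It had 98.5, 115 and 70.7 in ND and 55.6, 55.0 and 49.9 in HFD at 4 weeks, and 72.7, 73.1 and 67.1 and 31.0, 23.5 and 29.1 at 16 weeks. Every HFD library lay below every ND library of its time. The log2 fold change was -0.79 at 4 weeks (SE 0.17, limma adjusted p = 0.0127) and -1.32 at 16 weeks (SE 0.17, limma adjusted p = 0.000184). At 4 weeks the call was missed on median-ratio rescaling (log2 -0.59, limma adjusted p = 0.0513), without ND library 1 (adjusted p = 0.0502) and without HFD library 3 (adjusted p = 0.0534).

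The BAG proteins, which act as nucleotide exchange factors or partners of HSP70, moved in opposite directions. Bag6 (TRINITY_DN33116_c0_g3), which shields hydrophobic and tail-anchored proteins in the cytosol, had 6.45, 15.2 and 8.76 in ND and 28.0, 26.9 and 35.7 in HFD at 4 weeks, and 23.0, 21.9 and 24.7 and 57.6, 53.6 and 66.4 at 16 weeks. The diets did not overlap at either time, and ND itself was higher at 16 than at 4 weeks. Its log2 fold changes were 1.55 and 1.31 (SE 0.24 each, limma adjusted p = 0.00162 and 0.00134). Bag1 (TRINITY_DN35021_c3_g2) had 19.7, 14.3 and 15.9 in ND and 6.02, 6.06 and 4.22 in HFD at 4 weeks, and 10.0, 7.71 and 4.36 and 3.84, 3.81 and 3.65 at 16 weeks, again with no overlap within a time. It fell by 1.46 on the log2 scale at 4 weeks and by 0.75 at 16 weeks (SE 0.25, limma adjusted p = 0.00293 and 0.0343). A second unigene named Bag1 in the same assembly cluster had a log2 fold change of 0.56 at 16 weeks (limma adjusted p = 0.0752), and with both summed the fold at 16 weeks was -0.21 (adjusted p = 0.468), so which copy fell is uncertain. The call at 16 weeks was also lost without ND library 1 (adjusted p = 0.13) or 2 (adjusted p = 0.0963) or any HFD library of that time (adjusted p = 0.0688 to 0.0805).

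The CCT chaperonin folds actin and tubulin in the cytosol, and 4 of its subunits had a row. At 16 weeks Cct7 and Cct3 were higher on HFD by log2 0.47 and 0.38 (SE 0.14 each, limma adjusted p = 0.0182 and 0.0489), with Cct7 at 37.2, 32.3 and 30.5 in ND and 53.6, 44.0 and 42.5 in HFD. Both calls are close to the threshold: that of Cct3 was lost under 15 of its 24 alternatives, 9 of them the loss of 1 library (adjusted p up to 0.148 without HFD library 1 of 16 weeks), and that of Cct7 under 7, among them leaving out ND library 2 or 3 or HFD library 1 of 16 weeks (adjusted p = 0.0539, 0.07 and 0.0719). Cct6a had a log2 fold change of 0.19 (adjusted p = 0.371). CCT4 was called lower at 4 weeks, with 9.36, 5.60 and 6.47 in ND and 3.61, 0 and 0 in HFD (limma adjusted p = 0.0442). It was at 0 in the HFD libraries numbered 2 and 3, and its call was lost under 16 of 22 alternatives, among them leaving out any ND library of that time. The mitochondrial HSP70 Hspa9, which drives protein import and folding in the matrix, fell by 0.63 at 16 weeks on the log2 scale (limma adjusted p = 0.00951), from 117, 107 and 107 in ND to 80.7, 60.0 and 73.5 in HFD. At 4 weeks its diets overlapped (log2 -0.09, adjusted p = 0.789). Outside the genes chosen by name, the mitochondrial folding genes Grpel1 and Lonp1 were called higher on HFD at 16 weeks. Their log2 fold changes were 0.86 and 0.67 (limma adjusted p = 0.021 and 0.0118), and neither was called at 4 weeks (adjusted p = 0.0705 and 0.207).

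Among the lectin chaperones, which retain glycoproteins in the ER until they are folded, Calr was called at 16 weeks and Canx at neither time; a difference between these genes was not tested. Calr (TRINITY_DN35570_c2_g1), the soluble calreticulin, had 132, 191 and 106 in ND and 174, 154 and 146 in HFD at 4 weeks, and 130.2, 146 and 178 and 358, 335 and 328 at 16 weeks. The diets overlapped at 4 weeks, and at 16 weeks every HFD library was above every ND library. Its log2 fold change was 0.19 at 4 weeks (SE 0.21, limma adjusted p = 0.634) and 1.17 at 16 weeks (SE 0.21, limma adjusted p = 0.00138). With the HFD libraries numbered 1 alone the fold at 16 weeks was 1.25 (adjusted p = 0.059). Canx (TRINITY_DN35619_c2_g1), the membrane-bound calnexin, stood at 22.1, 39.5 and 25.8 in ND and 43.5, 30.8 and 40.1 in HFD at 4 weeks, and at 43.5, 52.5 and 60.5 and 79.1, 55.6 and 69.7 at 16 weeks. Its diets overlapped at both times, with log2 fold changes of 0.40 and 0.38 (SE 0.23, limma adjusted p = 0.277 and 0.218). Calr3, a calreticulin best known from testis, was not called at either time (log2 -0.24 and -0.54, adjusted p = 0.643 and 0.15).

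Of the disulfide isomerases among the 42 genes, the 2 that were tested, Pdia4 and PDIA3, were not called; Pdia6 was under the mean, and was called lower at 16 weeks when no filter was used. Pdia4 (TRINITY_DN32498_c0_g2), an ER enzyme that forms and rearranges disulfide bonds, had 6.01, 25.5 and 7.07 in ND and 24.0, 16.6 and 28.9 in HFD at 4 weeks, and 24.5, 38.6 and 37.0 and 54.7, 44.7 and 57.1 at 16 weeks. The HFD libraries were above the ND libraries at 16 weeks, while at 4 weeks ND library 2 stood among those of HFD. Its log2 fold changes were 1.05 and 0.65 (SE 0.42, limma adjusted p = 0.133 and 0.249). Without ND library 2 of 4 weeks they were 1.65 and 0.65 and both were called (adjusted p = 0.00289 and 0.0454). Pdia6 is named in the same assembly cluster as Pdia4, so reads may be divided between them. PDIA3, the partner of calreticulin and calnexin, was listed at 0, 4.83 and 4.35 in HFD at 4 weeks and at 0, 4.24 and 1.79 at 16 weeks, and was not detected in ND.

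Of the FKBP prolyl isomerases, Fkbp10 rose at 16 weeks while FKBP2 and Fkbp8 fell. Fkbp10 (TRINITY_DN28197_c0_g1), an ER protein that acts on procollagen, stood at 1.17, 0.580 and 0.792 in ND and 1.45, 1.29 and 1.76 in HFD at 4 weeks, and at 0.819, 0.796 and 0.820 and 6.17, 9.60 and 5.67 at 16 weeks. The HFD libraries lay above those of ND at both times, by a small margin at 4 weeks. Its log2 fold changes were 0.45 (SE 0.26, limma adjusted p = 0.298) and 2.14 (SE 0.26, limma adjusted p = 0.000104), and at such low levels the added 1 makes the fold smaller than the ratio of levels. The ND means of Fkbp10 were 0.848 and 0.812, so it reached the mean of 1 through HFD alone. It could hardly enter the test as lower on HFD, and its calls are given with that limit. FKBP2 (TRINITY_DN34998_c4_g1), a small enzyme of the ER lumen, had 172, 112 and 174 in ND and 79.6, 72.1 and 63.7 in HFD at 4 weeks, and 97.3, 91.2 and 83.4 and 58.4, 50.8 and 46.0 at 16 weeks. It did not overlap between diets at either time and fell by 1.05 and 0.80 on the log2 scale (SE 0.18, limma adjusted p = 0.00349 and 0.00558). Fkbp8 (TRINITY_DN33837_c0_g1), anchored in the outer mitochondrial membrane, had 194, 136 and 145 in ND and 107, 123 and 142 in HFD at 4 weeks, and 154, 124 and 143 and 59.1, 66.6 and 71.5 at 16 weeks. Its diets overlapped at 4 weeks alone, with log2 fold changes of -0.34 (adjusted p = 0.236) and -1.08 (SE 0.18, limma adjusted p = 7e-04).

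Among the cyclophilins, the other family of prolyl isomerases, Ppie was detected throughout and was lower on HFD. Ppie (TRINITY_DN30995_c0_g3), a nuclear cyclophilin of the spliceosome, had 22.6, 23.3 and 18.7 in ND and 14.3, 12.7 and 12.5 in HFD at 4 weeks, and 25.1, 22.9 and 20.5 and 14.6, 12.2 and 15.7 at 16 weeks. The diets did not overlap, and the log2 fold change was -0.66 at both times (SE 0.14, limma adjusted p = 0.0111 and 0.00418). Ppig, another nuclear cyclophilin, was not called (log2 0.26 and 0.37, adjusted p = 0.488 and 0.2). PPIA (TRINITY_DN34927_c1_g1), the abundant cytosolic cyclophilin A, had 24.2, 17.6 and 29.8 in ND and 7.75, 0 and 0 in HFD at 4 weeks, and 28.3, 18.0 and 21.3 and 4.39, 0 and 0 at 16 weeks. It was called lower at both times (limma adjusted p = 0.0143 and 0.00407), and in the HFD libraries numbered 1, where it was detected, it lay below every ND library. At 4 weeks the call was lost without ND library 3 (adjusted p = 0.0532), HFD library 2 (adjusted p = 0.0561) or HFD library 3 (adjusted p = 0.0615). PPIB, the ER cyclophilin that works on collagen, was listed at 0, 4.79 and 5.26 in HFD at 4 weeks and 0, 2.39 and 1.87 at 16 weeks, and the mitochondrial PPIF at 0, 11.0 and 6.13 and 0, 2.94 and 3.91. Neither was detected in ND or called in the fit of 12 libraries.

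At the ER membrane the genes did not move as a group. Rrbp1 (TRINITY_DN36023_c0_g1), which tethers ribosomes to the ER, had 105, 84.6 and 92.2 in ND and 64.9, 68.0 and 51.0 in HFD at 4 weeks, and 57.9, 70.4 and 72.1 and 95.2, 109.6 and 79.1 at 16 weeks. HFD lay below ND at 4 weeks and above it at 16 weeks, without overlap. The log2 fold changes were -0.61 and 0.49 (SE 0.17, limma adjusted p = 0.0367 and 0.0415), and each call was lost under 13 of 24 alternatives. At 4 weeks these included leaving out ND library 1 or 3 or any HFD library of that time (adjusted p = 0.0518 to 0.141), and at 16 weeks any ND library or HFD library 1 or 2 of that time (adjusted p = 0.058 to 0.136). DNAJC1, a J-domain protein of the ER membrane, fell by 0.71 at 16 weeks (log2, SE 0.15, limma adjusted p = 0.00346), from 28.0, 36.8 and 27.8 in ND to 20.0, 16.2 and 19.1 in HFD. Dnajb14, another, was called higher at 16 weeks, where ND had no library above its lowest value and HFD had 2.60, 1.54 and 2.13 (limma adjusted p = 0.028), but the call was lost when any single library of that time was left out (adjusted p = 0.051 to 0.0812). The channel unigene sec61a had 3.76, 3.11 and 5.84 in ND at 4 weeks and 5.86, 2.04 and 2.08 at 16 weeks, with 0 in the 6 HFD libraries. HSPRO2 had 2.80 to 4.34 over the 6 ND libraries and 0 in the 6 of HFD. SEC61B and SEC61G, the small subunits of the channel, had 3.58 and 5.92 in HFD library 1 at 4 weeks and 2.87 and 4.56 in HFD library 1 at 16 weeks. The second SEC61G row had 2.885 and 2.676 in HFD libraries 2 and 3 at 4 weeks and 1.112 and 2.96 at 16 weeks. Derl3, a membrane protein of ER-associated degradation, was not called (log2 0.11 and 0.13, adjusted p = 0.887 and 0.806).

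The transcription factors of the stress responses divided. JUN (TRINITY_DN34702_c4_g1), an AP-1 subunit induced by many stresses, had 19.9, 12.3 and 11.8 in ND and 34.7, 36.0 and 24.0 in HFD at 4 weeks, and 21.4, 22.1 and 17.1 and 47.5, 65.4 and 56.5 at 16 weeks. It did not overlap between diets at either time and rose by log2 1.07 and 1.43 (SE 0.22, limma adjusted p = 0.00858 and 0.000494). Atf4 (TRINITY_DN32523_c0_g1), the factor translated when PERK is active, had 70.4, 76.6 and 68.0 in ND and 96.2, 80.3 and 76.2 in HFD at 4 weeks, and 98.7, 62.1 and 56.8 and 117, 164 and 109.6 at 16 weeks. Its HFD libraries stood above ND at 16 weeks, with ND library 1 near to them, and the log2 fold changes were 0.23 (adjusted p = 0.565) and 0.86 (SE 0.22, limma adjusted p = 0.00987). Atf6 (TRINITY_DN32850_c0_g1), the membrane-bound sensor and factor, had 11.3, 17.5 and 4.52 in ND and 8.72, 4.71 and 4.60 in HFD at 4 weeks, and 10.6, 13.1 and 7.54 and 4.20, 3.80 and 4.80 at 16 weeks. It was called lower at 16 weeks (log2 -1.09, SE 0.39, limma adjusted p = 0.0454), and that call was lost under 14 of 24 alternatives, among them leaving out any HFD library of 16 weeks (adjusted p = 0.0753 to 0.118) or ND library 1 or 2 of that time (adjusted p = 0.102 and 0.141). XBP1 had 10.6 and 9.47 in the HFD libraries numbered 1 at 4 and 16 weeks and was not detected in the other 10 libraries.

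**Figure D3:**
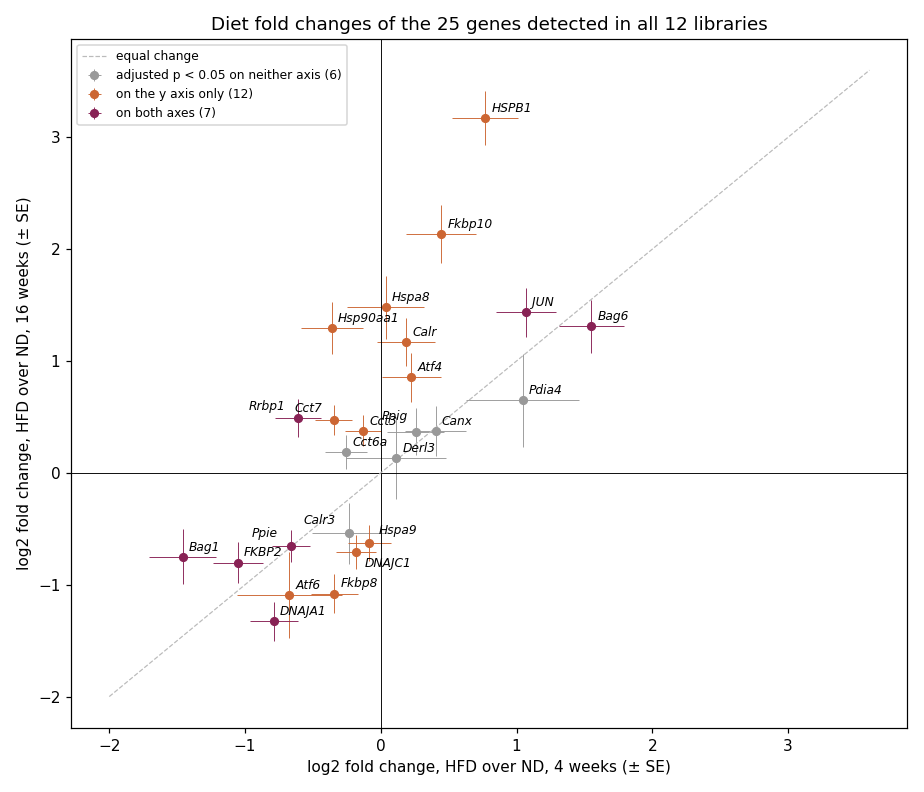
Log2 fold change of HFD over ND at 4 weeks (x axis) and 16 weeks (y axis) for the 25 genes detected in all 12 libraries, with SE bars; colours give the axes on which limma's adjusted p was under 0.05, and the dashed line marks equal change. HSPB1 (0.77, 3.17), Fkbp10 (0.45, 2.14), Hspa8 (0.04, 1.48) and Hsp90aa1 (-0.36, 1.29) stand far above the line, whereas JUN (1.07, 1.43) and Bag6 (1.55, 1.31) lie near it.

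Whether the diet effect differed between times was tested as the fold at 16 weeks minus the fold at 4 weeks. HSPB1, Fkbp10, Hsp90aa1, Hspa8, Rrbp1 and Cct7 had a higher log2 fold change, sign included, at 16 weeks, and no gene a lower one. That of Rrbp1, Cct7 and Hsp90aa1 was negative at 4 weeks (-0.61, -0.35 and -0.36) and positive at 16 weeks (0.49, 0.47 and 1.29). The 6 genes are 16.7% of 36, beside 10.1% of all unigenes (5.5% higher, 4.61% lower) and 18.5% of named unigenes. The differences were log2 2.40 for HSPB1 (limma adjusted p = 0.00234), 1.69 for Fkbp10 (adjusted p = 0.0143), 1.65 for Hsp90aa1 (adjusted p = 0.0097), 1.44 for Hspa8 (adjusted p = 0.0431), 1.10 for Rrbp1 (adjusted p = 0.0145) and 0.82 for Cct7 (adjusted p = 0.0203). That of Calr was 0.99 and missed the threshold (adjusted p = 0.0616). The test of Fkbp10 is limited, as it reached the mean through HFD alone. The difference of Hspa8 was lost with the library number as a replicate block (adjusted p = 0.0518) and without any 1 of 10 libraries (adjusted p = 0.0646 to 0.0987). That of Cct7 was lost without ND library 1 or HFD library 2 of 4 weeks or ND library 3 of 16 weeks (adjusted p = 0.0512 to 0.0531). Without the HFD libraries numbered 1, HSPB1 and Hsp90aa1 kept their calls, and Rrbp1, Hspa8, Fkbp10 and Cct7 lost theirs. With all 18 libraries HSPB1 alone was called. The difference of HSPB1 was log2 2.18 without the HFD libraries numbered 1 and 2.86 without those numbered 2 and 3.

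Over time on HFD, 8 genes rose between 4 and 16 weeks (Bag6, Calr, Canx, Cct7, Fkbp10, HSPB1, JUN and Rrbp1) and 3 fell (DNAJA1, DNAJC1 and Fkbp8), 30.6% of 36 where 17% of all unigenes were called (9.19% higher, 7.78% lower) and 29.5% of named ones. HSPB1 rose by log2 1.96 (SE 0.24, limma adjusted p = 0.00029), Fkbp10 by 1.68 (adjusted p = 0.000971) and Calr by 1.10 (adjusted p = 0.00374). Of these, Fkbp10 reached the mean through HFD alone. DNAJA1 fell by 0.92 and Fkbp8 by 0.90 (log2, limma adjusted p = 0.00331 and 0.00405). The calls of Rrbp1, JUN, Cct7, Canx and Bag6 were each lost when any 1 of 3 to 5 HFD libraries was left out (adjusted p = 0.0514 to 0.141), and no other call in this comparison was lost when a single library was left out. The HFD libraries with the same number deviated together at the 2 times, and in a fit of the 6 HFD libraries alone, with the number as a replicate block, 5 genes were called: Pdia4, Canx and Bag6 higher and Fkbp8 and DNAJC1 lower. Over all 9487 unigenes 230 were called there (148 higher, 82 lower). In that paired fit HSPB1 had adjusted p = 0.0547 and Calr adjusted p = 0.0531. With the 12 libraries and the same block, 12 genes were called, beside 1509 of 9487 unigenes. The macrophage and stellate sums were higher at 16 than at 4 weeks on HFD, the former mostly through Gpnmb, while Cd5l fell by 5.10 on the log2 scale (limma adjusted p = 0.00029); their part was not tested.

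On ND no gene was called between 4 and 16 weeks by limma, with 12 at an unadjusted p under 0.05, and 0.379% of all unigenes were called (0.211% higher, 0.169% lower). Hsp90aa1 and Hspa8 had log2 changes of -0.96 and -0.73 on ND (limma adjusted p = 0.0696 and 0.224) and of 0.69 and 0.71 on HFD (adjusted p = 0.0613 and 0.117), so neither moved past the threshold within a diet while the difference between diets did. Canx and Pdia4 had similar changes on both diets, 0.85 and 1.56 on ND (adjusted p = 0.0937 and 0.0944) and 0.82 and 1.16 on HFD (adjusted p = 0.0276 and 0.0829), and the difference between diets was -0.03 for Canx (SE 0.32) and -0.40 for Pdia4 (SE 0.59). ND library 2 of 4 weeks was the highest of its group for 15 of the 25 genes detected throughout, Hspa8, Hsp90aa1, Calr, Canx, Pdia4 and Bag6 among them. Without it, Pdia4, Canx and Bag6 were called higher and FKBP2 lower on ND, beside 125 higher and 108 lower of 9542 unigenes. A single gene was called without ND library 3 of 4 weeks (Hsp90aa1) and 1 without ND library 1 of 16 weeks (Bag1), both lower. Of all unigenes 21 and 60 were called in those fits.

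**Figure D4:**
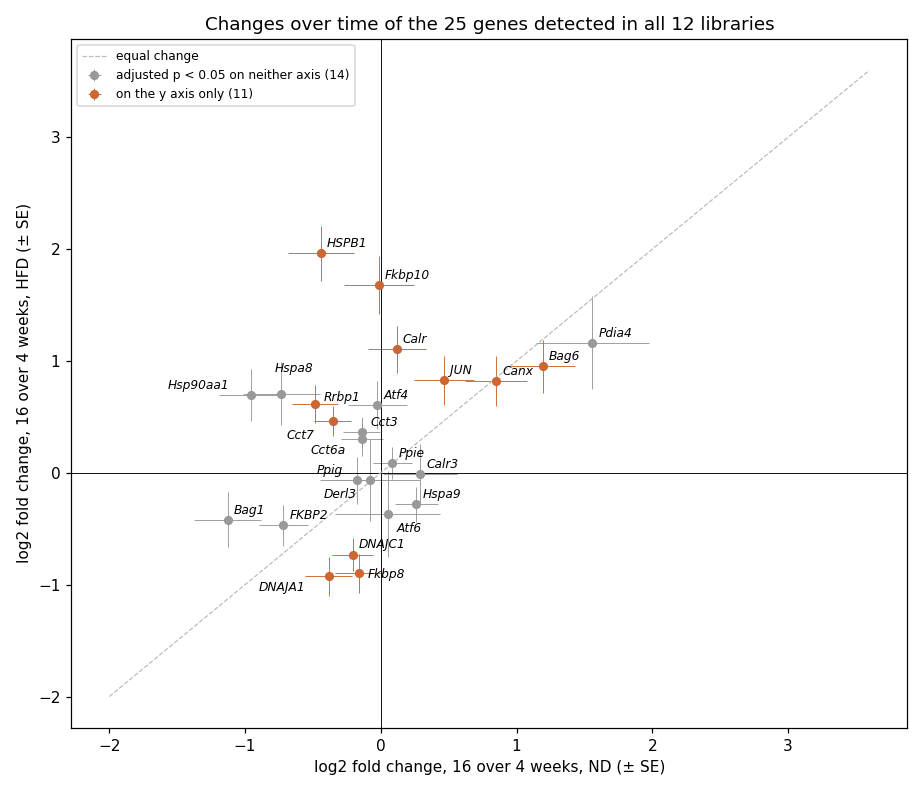
Log2 fold change from 4 to 16 weeks on ND (x axis) and on HFD (y axis) for the 25 genes detected in all 12 libraries, with SE bars; orange marks the 11 genes whose limma adjusted p was under 0.05 on HFD, and on ND there was none. HSPB1 (-0.44, 1.96) and Hsp90aa1 (-0.96, 0.69) lie in the upper left, whereas Canx (0.85, 0.82) and Bag6 (1.19, 0.95) lie near the dashed line of equal change.

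Other genes of the same pathways were taken from lists of stress sensors, ER stress targets, collagen and glycan folding enzymes, degradation factors, signal peptide handling and cytosolic or mitochondrial folding; 26 had a row and 24 were tested. At 4 weeks 2 rose and 2 fell, and at 16 weeks 9 rose and 2 fell, beside 12.1% and 35.2% of all unigenes. Serpinh1, the ER chaperone of collagen also called HSP47, had 8.02, 6.64 and 6.26 in ND and 17.1, 27.2 and 27.7 in HFD at 4 weeks, and 8.99, 7.85 and 7.19 and 87.5, 243 and 104 at 16 weeks, with no overlap at either time. Its log2 fold changes were 1.62 and 3.87 (SE 0.32, limma adjusted p = 0.00695 and 7.24e-06). At 16 weeks Ppp1r15a, the phosphatase subunit that reverses PERK signalling and a target of ATF4, rose by log2 1.50 (adjusted p = 0.000422), and the disulfide isomerase Txndc5 by 1.27 (adjusted p = 0.0015). Creb3l3, a membrane-bound factor of hepatocytes, was called higher at 4 weeks (log2 1.16, limma adjusted p = 0.0482), and at 16 weeks it had a log2 fold change of -0.65 (adjusted p = 0.16). Srp68, of the signal recognition particle, fell by 0.47 at 4 weeks (adjusted p = 0.0412), and Hsf4, a heat shock factor best known from the lens, by 0.88 at 16 weeks (adjusted p = 0.0414). Hsf1, the factor that drives the heat shock genes, went the other way at 16 weeks (log2 0.86, limma adjusted p = 0.0114). It was not called at 4 weeks (log2 0.46, adjusted p = 0.214). TBCA, which folds beta-tubulin and is counted among the falls at both times, was listed at 0 in 2 of 3 HFD libraries at each time and at 1.42 to 3.26 in the ND libraries, and it too reached the mean through ND alone. The calls of Creb3l3, Srp68 and Hsf4 were lost under 15, 15 and 14 of 24 alternatives, while those of Serpinh1, Ppp1r15a at 16 weeks and Txndc5 at 16 weeks held under all 24. Among the libraries compared, Creb3l3's call was lost without ND 4W library 1 or 3 or any HFD 4W library (limma adjusted p = 0.0678 to 0.149). Srp68's was lost without any ND 4W library or without HFD 4W library 2 or 3 (limma adjusted p = 0.0525 to 0.138). Hsf4's was lost without any ND 16W library or without HFD 16W library 1 or 3 (limma adjusted p = 0.0706 to 0.146). Without HFD 16W library 3, Creb3l3 was called lower at 16 weeks (log2 -1.10, limma adjusted p = 0.00828).

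Of the 26 best-known genes of these responses that were to be described whatever their values, 13 had a row by the rule and are given above. The others (Hspa5, Hsp90b1, P4hb, Hyou1, Ddit3, Sel1l, Hsp90ab1, Hspd1, Hspe1, Dnajb9, Dnajb11, Dnajc3 and Fkbp5) were not analysed here, so the central ER chaperones are represented by Calr, Canx, Pdia4 and PDIA3.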

How the data were processed

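Liver poly(A) RNA of male gerbils was sequenced, and per the labels' protocols reads were assembled with Trinity 2.4.0 and the longest transcript of each cluster kept as a unigene. The submitters' processing notes name Salmon and edgeR without a version or a role. The deposited values are a signal, a normalized expression level made by the authors, whose unit before normalization the labels used here do not state. The depth of each library is unknown, so no counting interval is given.

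From the deposited levels, log2(level + 1) was fitted with limma 3.58.1 in R 4.3.3 (1 mean per group, variance trend) over the 12 libraries of 4 and 16 weeks and the 9487 unigenes with a mean of at least 1; adjusted p is Benjamini-Hochberg over all of them. The code was tested on simulated data. The genes, lists and tests were chosen with earlier results of these data known. Named by a fixed rule were the 10 largest called rises and falls per diet contrast, the 5 largest called changes per other contrast, 26 listed genes, and the 3 largest rises and falls outside the members; other members are named so that all 42 are accounted for. Hsf1, Grpel1 and Lonp1 are also named, outside that rule. Alternatives were another pseudocount, filters, scaling, summed names, all 18 libraries, library sets, the variance model, the replicate block and leaving out each library.

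Library numbers were checked for pairing: of 18 pairs of same-numbered libraries 3 had residuals correlated over 0.1, all of them HFD at 4 and 16 weeks (0.397, 0.18 and 0.117), so the numbers were taken to pair that comparison alone. No sequence was used.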

Additional observations from a re-analysis of the deposited data

Results flagged for a closer look

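For 6 genes the diet effect, as log2 fold change of HFD over ND, differed between times by a test of the difference itself in limma. The test took 16 weeks minus 4 weeks, with 3 libraries a group and Benjamini-Hochberg over all 9487 unigenes. These genes are 16.7% of the 36 tested, beside 10.1% of all unigenes and 18.5% of named unigenes. The difference was 2.40 for HSPB1 (adjusted p = 0.00234), 1.69 for Fkbp10 (adjusted p = 0.0143), 1.65 for Hsp90aa1 (adjusted p = 0.0097), 1.44 for Hspa8 (adjusted p = 0.0431), 1.10 for Rrbp1 (adjusted p = 0.0145) and 0.82 for Cct7 (adjusted p = 0.0203). On ND the mean of HSPB1 was 22.9 at 4 and 16.5 at 16 weeks, with no overlap between times (log2 -0.44, not called), and on HFD 40.9 and 159; Fkbp10 had ND means of 0.848 and 0.812 and HFD means of 1.50 and 7.15. For Hsp90aa1 and Hspa8 the ND mean was lower at 16 than at 4 weeks (38.9 and 80.1 for Hsp90aa1, 238 and 416 for Hspa8) and the HFD mean higher. The difference of Hspa8 was lost with the replicate block (adjusted p = 0.0518) and in all under 16 of 23 alternatives, and that of Cct7 under 7 of 23. Without the HFD libraries numbered 1, HSPB1 and Hsp90aa1 alone kept their calls. With all 18 libraries HSPB1 alone was called. Fkbp10 reached the mean through HFD alone.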

How the results depend on the processing

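The main counts of genes called were 11 and 23 for diet at 4 and 16 weeks, 6 for their difference, and 0 and 11 for time on ND and HFD. Over all 9487 unigenes tested they were, in the same order, 1149, 3340, 959, 36 and 1610. With all 18 libraries the genes chosen by name gave 4, 11, 1, 0 and 5, beside 654, 2724, 507, 36 and 1128 of 10822 unigenes. That fit takes in the 8-week libraries, which did not follow the others. Variance without trend gave 7 at 4 weeks, 3 for the difference and 7 for time on HFD, beside 982, 760 and 1454 of all unigenes. Without the HFD libraries numbered 1, 2 genes differed between times and 6 changed on HFD, beside 455 and 931 of 9262 unigenes. At 4 weeks 16 genes were called there, 8 in each direction, beside 1253 unigenes (655 higher, 598 lower). Without those numbered 2 and 3, an alternative chosen after seeing the data, the counts were 3, 10, 1, 0 and 1. Time on ND gave 4 with a mean of at least 5 and 3 over unigenes detected in all 12 libraries, beside 125 of 1857 and 150 of 3377 unigenes. The replicate block in the fit of 12 libraries gave 9, 22, 5, 0 and 12, beside 1025, 3262, 816, 19 and 1509 of all unigenes. In HFD alone, added after seeing the data, it gave 5 for time on HFD, of which 4 were among the 11. There 230 of all unigenes were called. Leaving out 1 library gave 7 to 16, 17 to 24, 4 to 7, 0 to 4 and 7 to 14. Over all unigenes it gave 710 to 1194, 2463 to 3409, 590 to 940, 0 to 233 and 981 to 1693. For these settings the cause was not tested.

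Reversed values all belong to folds that were not called. At 4 weeks Dnajb14 had 0.11 on median-ratio rescaling and 0.67 without the HFD libraries numbered 1, Hsf4 had 0.061 and 0.20 there, Hspa8 had -0.076 without those numbered 2 and 3, and on rescaling and without numbers 2 and 3, in that order, DNAJC1 had 0.0050 and 0.0088, Cct3 0.059 and 0.0066, and Hspa9 0.11 and 0.10. Leaving out 1 library gave -0.40 to 0.67 for Dnajb14, -0.24 to 0.32 for Hspa8, -0.0055 to 0.42 for Calr, -0.35 to 0.20 for Hsf4 and -0.18 to 0.017 for Hspa9 at 4 weeks, and -0.075 to 1.62 for XBP1 at 16 weeks. CCT4 at 16 weeks had 0.23 without the HFD libraries numbered 2 and 3. Folds of genes at 0 in some libraries depend on the pseudocount.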
